A study of Mus musculus with 6 samples.

Results

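Oxidative phosphorylation genes were followed in brain RNA of C57BL/6 mice given 4-aminopyridine (4-AP) by intraperitoneal injection and of untreated controls (labelled NC), with 3 libraries in each group. 4-AP blocks voltage-gated potassium channels, and the series gives it as a model of status epilepticus, in which seizures do not stop by themselves. Members were all protein-coding genes whose symbols start Nduf, Uqcr, Sdh, Atp5, Cox4 to Cox8, mt-Nd, mt-Co, mt-Atp or mt-Cytb. The rule took 111 genes of the 55604 counted, 98 encoded in the nucleus and 13 in the mitochondrion. All 6 libraries were made from total RNA treated with RNase R, which digests linear RNA from its 3′ end, and each value sums all reads of a gene, whether from linear or circular molecules. The labels give no dose, time after injection, age, sex or brain region. They name no vehicle injection for the controls, so the drug and the injection cannot be told apart. They also do not say whether each library came from its own mouse, so every p-value below measures the spread between these samples, which may be technical.

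Oxidative phosphorylation is the process by which the inner mitochondrial membrane turns electrons from nutrients into ATP. Complexes I and II pass electrons to coenzyme Q, complex III passes them on to cytochrome c, complex IV gives them to oxygen, and complex V (ATP synthase) uses the resulting proton gradient. Complex II is built wholly from nuclear genes, while the other complexes join nuclear subunits to subunits made inside the mitochondrion. Neurons depend on this pathway to drive the ion pumps that restore membrane potential after firing.

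Total counts were 1507882 to 2721287 in the 4-AP libraries and 2355610 to 3409055 in the NC libraries. A count of 3 corresponded to 1.07 to 2.19 CPM in 4-AP and to 0.778 to 1.34 CPM in NC libraries, where CPM is the gene's count scaled to library depth. After RNase R treatment, CPM measures the reads that were left and not the RNA level in the tissue. Words such as abundant refer below to those reads. The tissue label fitted the marker genes: summed over 5 markers each, pan-neuronal genes stood at 1344 to 1672 CPM in 4-AP and 1796 to 1999 in NC libraries, and oligodendrocyte genes at 2583 to 3527 and 2249 to 3456 CPM. Markers of skeletal and heart muscle summed to 10.01 to 16.8 CPM in 4-AP and 10.6 to 11.3 in NC libraries. The 4 glutamatergic markers summed to 628.6 to 902.9 CPM in 4-AP and 1242 to 1309 in NC libraries, and 3 of them (Slc17a7, Nrgn and Neurod2) were lower by the test used below. The other, Slc17a6, averaged 38.01 CPM in 4-AP and 18.0 in NC libraries and did not pass (log2 1.05, SE 0.82). Reads on Lars2, a single locus, took 12.4% to 21.4% of counts in 4-AP and 3.82% to 12.1% in NC libraries. Genes annotated as rRNA took 3.76% to 10.4% and 0.790% to 4.51%, with NC replicate 3 inside the 4-AP range for the rRNA genes and just below it for Lars2. The part of these differences in the results below was not tested beyond leaving those genes out of the scaling, which changed no call among the members. That step alters only the scaling of the libraries. Any part of the differences in the members' own reads was not tested.

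No oxidative phosphorylation gene passed the test between 4-AP and NC brain. Of the 111 members, 88 had enough counts to test, and edgeR's quasi-likelihood F-test left 0 of them under 0.05 after adjustment over the whole table, against 0.843% of all 11388 tested genes. At an unadjusted p under 0.05 there were 8 members, 7 higher and 1 lower in 4-AP, where 13.9% of all tested genes passed (6.29% higher and 7.57% lower). limma-voom and DESeq2 also called 0, although DESeq2 gave an adjusted p to only 16 members. The CPM ranges of 4-AP and NC did not overlap for 19 of the 88, against 18.8% of all tested genes. Counted in either direction, the number of passing or separated members was thus near the background of the whole table. By direction the separated members were uneven, with 4-AP higher for 16 and lower for 3. Among all tested genes, 8.36% were separated with 4-AP higher and 10.4% with 4-AP lower. In simulated counts of the same depth the test found 9.55% of genes altered by 1.5-fold. It found 54% at 2-fold and 88.5% at 4-fold. Changes of 1.5-fold were therefore mostly not detectable over the table as a whole. The altered genes were drawn from all tested genes, so these rates are not those of the members. The median SE of the log2 fold change was 0.29 over the tested members and 0.25 over all tested genes. Single abundant members had smaller ones, such as 0.13 for Atp5b. In bulk tissue, fewer cells of a type and less RNA per cell cannot be told apart.

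**Figure D1:**
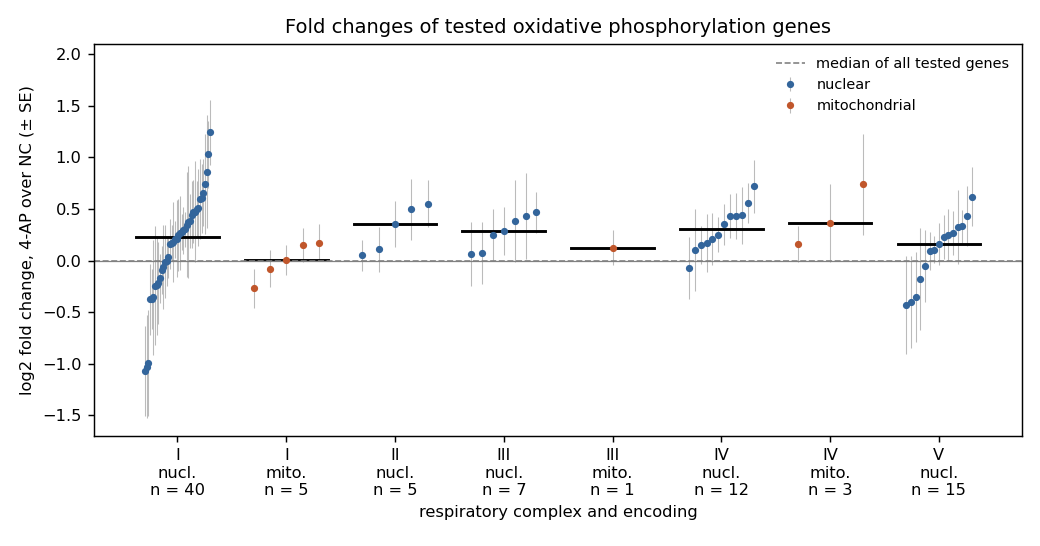
Each point is 1 tested gene and its bar the standard error; the y axis is the log2 fold change of 4-AP over NC, and genes are grouped along the x axis by complex and by nuclear or mitochondrial encoding. Black lines mark group medians, which run from 0.0013 for mitochondrial complex I genes to 0.37 for mitochondrial complex IV genes. Scaling by total counts alone put these at -0.21 and 0.17 and the median of all tested genes at -0.22. The dashed line marks the median of all tested genes in the main scaling, at -0.0076.

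The mitochondrial genome encodes 13 proteins of the pathway, and their counts were very uneven. Per kilobase of gene, mt-Co1, the catalytic subunit of complex IV, had 1893 CPM averaged over the 6 libraries, while mt-Co2 and mt-Co3, the other core subunits of that enzyme, had 10.01 and 13.0 CPM. The complex I gene mt-Nd5 came after mt-Co1 with 611 CPM per kilobase, followed by mt-Nd6 (209), mt-Nd1 (195), the complex III gene mt-Cytb (175), mt-Nd2 (117) and mt-Nd4 (63.1). At the low end stood mt-Nd3 (5.53), the ATP synthase gene mt-Atp6 (5.15), mt-Nd4l (2.45) and mt-Atp8 (2.42). Together mt-Co1 and mt-Nd5 held most of these counts: mt-Co1 alone took 58.9% to 68.2% of the mitochondrial members' counts in 4-AP and 55.1% to 65.9% in NC libraries.

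All but mt-Atp8 of the genes at the low end, mt-Co2 and mt-Co3 included, have a near-perfect copy along nearly their whole length in nuclear DNA. On chromosome 1 (24611535 to 24616197, minus strand, mm10) the annotation lists a run of 7 unprocessed pseudogenes that repeats a stretch of the mitochondrial genome. Over their aligned lengths Gm28661 matched mt-Co2, Gm10925 matched mt-Atp6, Gm28437 matched mt-Co3, Gm10222 matched mt-Nd4l and Gm28439 matched part of mt-Nd4 at 100% of bases, and Gm28438 matched mt-Nd3 at 99.7%. The opening 60 bases of mt-Co2 (chrM:7013-7072) and of Gm28661 (chr1:24615506-24615565, minus strand) are shown because a read from one could not be told from a read of the other:
mt-Co2: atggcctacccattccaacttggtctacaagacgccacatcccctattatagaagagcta
Gm28661: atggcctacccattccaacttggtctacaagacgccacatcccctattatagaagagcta
The copy of mt-Co1 in this run is shorter. Gm29216 covers 492 of its 1545 bases, and the edge of the copy is visible in the next pair, taken from base 1054 of mt-Co1 (chrM:6381-6440) and from the start of Gm29216 (chr1:24616138-24616197, minus strand), with the 6 mismatched bases in capitals:
mt-Co1: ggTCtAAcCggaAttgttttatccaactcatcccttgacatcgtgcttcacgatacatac
Gm29216: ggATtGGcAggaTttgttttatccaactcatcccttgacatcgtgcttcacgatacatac
All sequences were read from the GENCODE M21 transcripts.

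The share of each gene's 50-base words that also occur in another gene's transcript separated high from low counts in all but 1 case. It was 0% for mt-Nd1, mt-Nd6 and mt-Cytb, 7.61% for mt-Nd5, 8.19% for mt-Nd2, 51.1% for mt-Co1 and 62.2% for mt-Nd4, and between 98% and 100% for mt-Nd3, mt-Nd4l, mt-Atp6, mt-Co3 and mt-Co2. The exception was mt-Atp8, with 0% shared words and 0 to 2 counts a library. This gene is 204 bases long and overlaps mt-Atp6 on the same strand over 21.1% of its bases. The part of that overlap in its low count was not tested. Between Gm10925 and Gm28661 lie 233 bases of chromosome 1 with no annotated copy gene, and that stretch was not compared because no genome sequence was used here. The counts on the copies differed with how much of the gene is copied. mt-Co3 had 15, 32 and 18 counts in 4-AP and 14, 43 and 25 in NC libraries, and its copy Gm28437 had 16, 33 and 22 in 4-AP and 18, 35 and 20 in NC libraries. For the partly copied genes the copies had fewer: mt-Nd4 had 122 to 316 counts over the 6 libraries and Gm28439 8 to 27, and mt-Co1 had 3999 to 14266 and Gm29216 11 to 140. Gm29216 holds 28.7% of the mt-Co1 words, so other annotated genes hold part of the 51.1%. How the authors' counting treated reads with several equally good positions is not given in the sources used here, and its part in these levels was not tested. The levels of the 5 genes with at least 98% shared words are therefore uncertain, and those of mt-Co1 and mt-Nd4 partly so. The 5 genes held 0.327% to 0.766% of the mitochondrial members' counts in 4-AP and 0.373% to 0.482% in NC libraries.

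**Figure D2:**
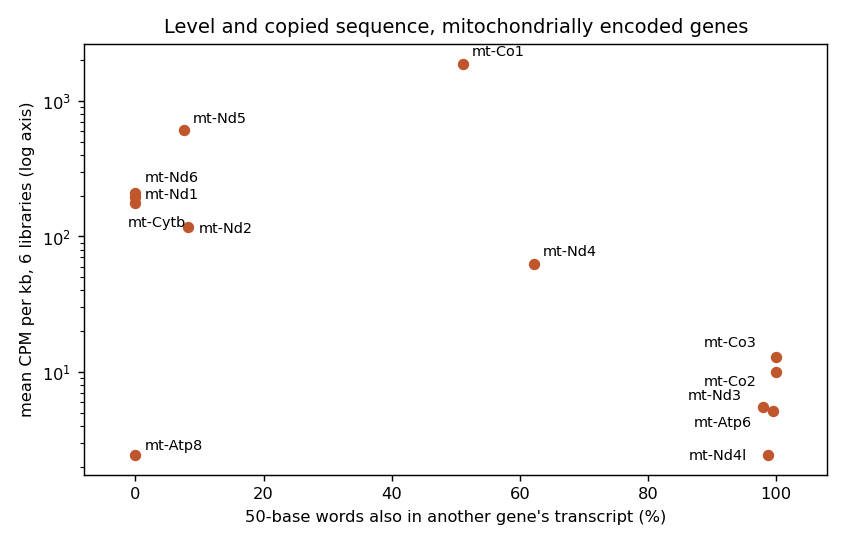
The x axis gives the percentage of 50-base words of each mitochondrially encoded gene found in another gene's transcript, and the y axis its mean CPM per kilobase over all 6 libraries on a log scale. The 5 genes at 98% or more lie between 2.45 and 13.0 CPM per kilobase, and mt-Atp8 is the 1 gene with no shared words at that level.

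For the mitochondrial complex I genes the groups overlapped throughout. mt-Nd5, a proton-pumping core subunit, had 1163, 963 and 1221 CPM in 4-AP libraries, against 973, 1140.1 and 1229.5 CPM in NC libraries. The group means were 1116 ± 135 and 1114 ± 130.1 CPM (SD, n = 3 each), with a log2 fold change of 0.0013 (SE 0.15). mt-Nd1 stood at 207, 170.4 and 213 CPM in 4-AP and at 136, 214 and 179 in NC libraries. mt-Nd6, the one gene of the set on the light strand, had 117, 72.5 and 107 CPM in 4-AP, against 98.1, 119 and 137 in NC libraries (log2 -0.27, SE 0.19; edgeR adjusted p 0.580). In each of these genes 4-AP replicate 2 was the lowest of its group. mt-Nd2 was at -0.08 and mt-Nd4 at 0.17 on the log2 scale. mt-Nd3 had 13 counts over the 4-AP and 15 over the NC libraries, and mt-Nd4l 5 and 5, too few to test.

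The mitochondrial genes of complexes III, IV and V also overlapped between groups. mt-Cytb, the electron-carrying core of complex III, had 229, 157 and 243 CPM in 4-AP and 157, 211 and 207 in NC libraries. mt-Co1 had 3002, 3337 and 2923 CPM in 4-AP libraries. In NC libraries it had 2139, 3700.0 and 2446, so NC replicate 2 was above and the other NC libraries below every 4-AP library. The log2 difference was 0.16 (SE 0.18), with an edgeR adjusted p of 0.771. mt-Co2 had 2.61, 8.58 and 14.6 CPM in 4-AP, against 3.77, 5.71 and 5.80 in NC libraries, and mt-Co3 had 9.78, 11.4 and 13.2 against 4.40, 11.2 and 11.2. Their log2 fold changes of 0.74 (SE 0.49) and 0.37 (SE 0.38) rest on few reads that could also belong to the copies. mt-Atp6 had 23 counts over the 4-AP and 28 over the NC libraries and mt-Atp8 3 and 4, and neither was tested. The 9 tested mitochondrial genes had a median log2 fold change of 0.15, with 7 above 0, and none separated the groups. Scaling by total counts alone put their median at -0.07 and that of all tested genes at -0.22.

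**Figure D3:**
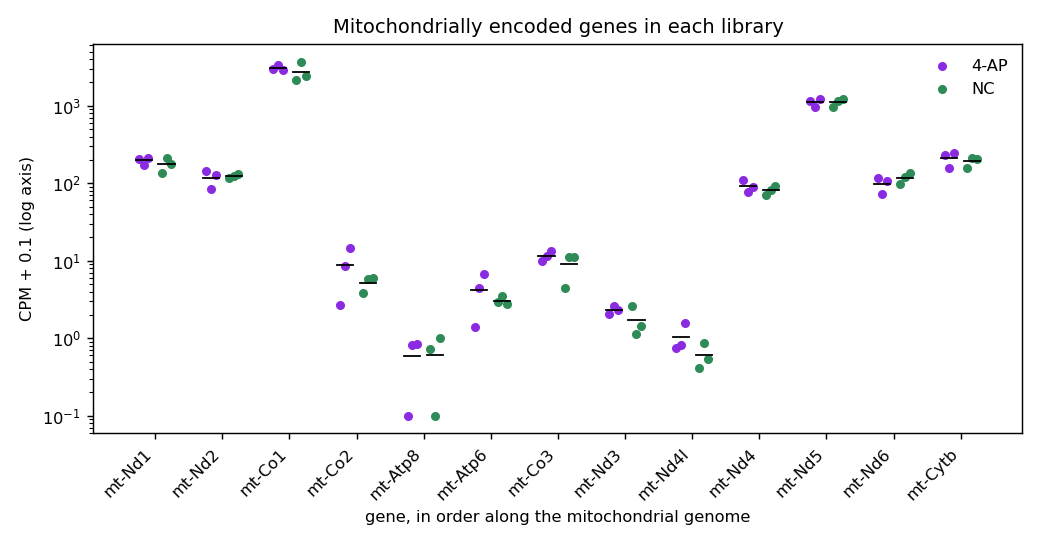
Points show each library's CPM plus 0.1 on a log axis for the 13 mitochondrially encoded genes in genome order, 4-AP left and NC right, with black lines at group means. The groups overlap in each of the 13, and mt-Co1 (means 3087 and 2762 CPM in 4-AP and NC) lies far above its neighbours mt-Co2 and mt-Co3.

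Mitochondrial members together held 0.416%, 0.503% and 0.450% of all counts in 4-AP brain, against 0.417%, 0.635% and 0.423% in NC brain. The widest Wilson 95% interval was 0.439% to 0.461%, for 4-AP replicate 3, and covers counting error only. Nuclear members took 0.236%, 0.303% and 0.300% in 4-AP and 0.274%, 0.308% and 0.253% in NC libraries. There were 1.76, 1.66 and 1.5 mitochondrial counts per nuclear count in 4-AP, against 1.52, 2.06 and 1.67 in NC libraries, and the groups overlapped. Neither of the mitochondrial ribosomal RNAs passed the test. mt-Rnr2, the large ribosomal RNA, averaged 11897 CPM in 4-AP and 2885 in NC libraries, with a log2 difference of 2.04 (SE 0.92; edgeR adjusted p 0.462), and mt-Rnr1, the small one, was at 1.75 (SE 0.88; edgeR adjusted p 0.508). Both rRNAs together took 1.93%, 0.726% and 1.32% of counts in 4-AP libraries and 0.143%, 0.263% and 0.737% in NC libraries, so NC replicate 3 lay above 4-AP replicate 2.

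Among nuclear complex I genes, 40 of 44 were tested, 26 lay above 0 and the median log2 fold change was 0.23. Scaled by total counts alone, the medians were 0.03 for these genes and -0.22 for all tested genes. Ndufc2, an accessory subunit of the membrane arm (chromosome 7, 97400003 to 97407802, plus strand), came nearest to the threshold of all members. It had 18.3, 25.4 and 31.4 CPM in 4-AP libraries, against 7.86, 15.6 and 7.14 CPM in NC libraries. Every 4-AP library was above every NC library, and the fitted difference was log2 1.25 (SE 0.32; adjusted p = 0.0604 by edgeR). Without NC replicate 2 the log2 value was 1.74 and passed the test (edgeR adjusted p 0.0297), and it missed the threshold when any of the other 5 libraries was dropped instead. Ndufa7, another accessory subunit, had 18.9, 18.2 and 25.6 CPM in 4-AP, against 5.66, 14.0 and 10.3 in NC libraries (log2 1.03, SE 0.32; adjusted p = 0.128 by edgeR). Neither gene shared exonic bases with a neighbour, and 0% and 1.52% of the words of their longest transcripts occurred in other annotated transcripts. Those transcripts have 683 bases, beside 754 exonic bases in all, for Ndufc2 and 640 beside 1828 for Ndufa7. The rest of the exonic sequence was not compared.

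Other abundant complex I genes were closer between groups. Ndufv1, which binds the flavin that accepts electrons from NADH, averaged 103 ± 23.2 CPM in 4-AP and 88.9 ± 11.7 in NC libraries (SD, n = 3 each). The accessory subunit Ndufa9, among the most abundant of the complex per length at 38.03 CPM per kilobase, had 87.4, 79.7 and 87.7 CPM in 4-AP and 73.9, 81.2 and 69.6 in NC libraries.

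Assembly factors of complex I, which build the enzyme and then leave it, had the lowest median of the nuclear roles with at least 3 tested genes, at -0.24, with 5 of 7 below 0. Ndufaf3 had 7.82, 3.22 and 2.92 CPM in 4-AP, against 9.11, 10.4 and 8.93 in NC libraries. All 3 4-AP libraries were below all 3 NC libraries (log2 -1.07, SE 0.44; adjusted p = 0.262 by edgeR). Ndufaf1, named after its values were seen, had 1.96, 3.93 and 2.92 CPM against 6.60, 7.52 and 4.02 (log2 -0.99, SE 0.51). The accessory subunit Ndufb2 also lay lower, with 1.30, 4.29 and 4.39 CPM in 4-AP and 7.23, 5.71 and 8.48 in NC libraries (log2 -1.03, SE 0.50). These were low counts, with Ndufaf3 at 12, 9 and 4 reads in the 4-AP libraries.

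Complex II, succinate dehydrogenase, also works in the citric acid cycle. Sdha, its flavoprotein, was the most abundant of its genes per length (46.6 CPM per kilobase) and had 175, 212 and 200.3 CPM in 4-AP, against 212, 189 and 167 in NC libraries. The values overlapped, with a log2 fold change of 0.05 (SE 0.15). Sdhb, the iron-sulfur subunit, was at 0.11 and the membrane anchor Sdhd at 0.36. The other anchor, Sdhc, had 33.9, 33.9 and 38.01 CPM in 4-AP and 25.1, 28.01 and 17.9 in NC libraries, which did not overlap (log2 0.55, SE 0.23; adjusted p = 0.262 by edgeR). The assembly factor Sdhaf2 had 15.6, 15.7 and 15.3 CPM in 4-AP, against 9.11, 12.7 and 11.2 in NC libraries.

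In complex III all 7 tested nuclear genes lay above 0, with a median of 0.28, and none passed. With total counts alone that median was 0.07, where all tested genes had -0.22. Uqcrc2, a core protein of the matrix side, had 75.6, 67.2 and 76.0 CPM in 4-AP, against 46.8, 66.9 and 42.8 in NC libraries (log2 0.47, SE 0.20; adjusted p = 0.277 by edgeR). The groups were separated by 4-AP replicate 2 lying just over NC replicate 2. Exons of Uqcrc2 overlap those of Pdzd9 over 19.7% of their bases, 24.8% of its words occur in other genes, and without a stated strand setting the reads of both cannot be told apart. Uqcr11 was the most abundant nuclear gene of the complex per length, at 51.1 CPM per kilobase. It had 31.9, 27.9 and 49.0 CPM in 4-AP and 27.7, 29.3 and 30.8 in NC libraries. Uqcr10 had 7.82, 8.58 and 22.7 CPM against 6.60, 10.6 and 11.6, and its log2 value of 0.38 was -0.21 without 4-AP replicate 3.

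The list of widely expressed nuclear genes set under complex IV held 12, all tested, with Ndufa4 and Cox7a2l counted among them. Of these 11 lay above 0, with a median of 0.30. Scaling by total counts alone gave 0.11, with Cox6b1 then at -0.07, where the median of all tested genes was -0.22. Cox5b, a zinc-binding subunit, had 68.5, 57.5 and 80.4 CPM in 4-AP, against 41.5, 46.4 and 51.3 in NC libraries (log2 0.56, SE 0.19; adjusted p = 0.162 by edgeR). Cox6c had 25.4, 24.7 and 28.5 CPM in 4-AP and 11.3, 17.6 and 18.7 in NC libraries (log2 0.72, SE 0.26; adjusted p = 0.185 by edgeR). In both genes the 4-AP libraries were all above the NC libraries. Of the Cox5b words, 25.9% also occur in Gm11273, so its reads may be split between the genes. Per length the highest were Cox8a (109.6 CPM per kilobase), Cox6b1 (67.9) and Cox4i1 (65.4). Cox8a had 82.8, 59.7 and 91.4 CPM in 4-AP, against 48.4, 48.0 and 76.8 in NC libraries, and the groups overlapped. Cox4i1, the subunit at which ATP is known to inhibit the enzyme, averaged 110.0 ± 12.01 CPM in 4-AP and 92.7 ± 15.9 in NC libraries, and Cox6b1 50.7 ± 3.41 and 45.4 ± 3.05 (SD, n = 3 each). Cox5a was the 1 member of this group below 0, at -0.07.

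Genes listed here as tissue-restricted isoforms or paralogues were near the detection limit, and none was tested. Cox6a2, the heart and muscle form of Cox6a, had 3, 6 and 3 counts in 4-AP and 4, 3 and 2 in NC libraries. In CPM these few counts were 1.96, 2.14 and 2.19 in 4-AP and 1.26, 0.778 and 0.893 in NC libraries, without overlap. Cox7a1, another muscle form, had 2 counts over the 4-AP and 3 over the NC libraries. Cox8b, a muscle form of Cox8, had 0, 1 and 5 counts in 4-AP and 0 in each NC library. The testis forms Cox6b2, Cox7b2 and Cox8c had 1, 0 and 0 counts over the 4-AP libraries and 2, 1 and 5 over the NC libraries. Cox4i2, the lung isoform of Cox4, had 4 and 2, and Ndufa4l2, a paralogue induced by low oxygen, 8 and 11. All 8 lay within a few counts of the floor of 3 per library.

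In complex V the catalytic beta subunit gene Atp5b had the highest level of reads per length of all nuclear members, at 144 CPM per kilobase. It had 572, 672 and 648 CPM in 4-AP libraries, against 585, 593 and 583 CPM in NC libraries, with a log2 fold change of 0.10 (SE 0.13). The rotor-shaft gene Atp5c1 had 121, 124 and 158 CPM in 4-AP and 96.2, 110.0 and 112 in NC libraries, which did not overlap (log2 0.33, SE 0.16; adjusted p = 0.370 by edgeR). Atp5d, of the same central stalk, averaged 49.95 ± 12.01 CPM in 4-AP and 44.6 ± 2.58 CPM in NC libraries (SD, n = 3 each). A family of 3 genes encodes the same c-ring subunit. Of these Atp5g2 had 14.99, 18.6 and 25.6 CPM in 4-AP against 10.7, 14.0 and 13.4 in NC libraries (log2 0.62, SE 0.29), while Atp5g1 stood at 0.09 and Atp5g3 at 0.25 on the log2 scale. The lowest values of the complex were those of the peripheral-stalk gene Atp5j (-0.43, SE 0.47) and the membrane subunit Atp5k (-0.40, SE 0.45), both with 36 or fewer reads in each library. Over the 15 tested genes the median was 0.16 and 10 lay above 0. Scaling by total counts alone gave medians of -0.05 for them and -0.22 for all tested genes.

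**Figure D4:**
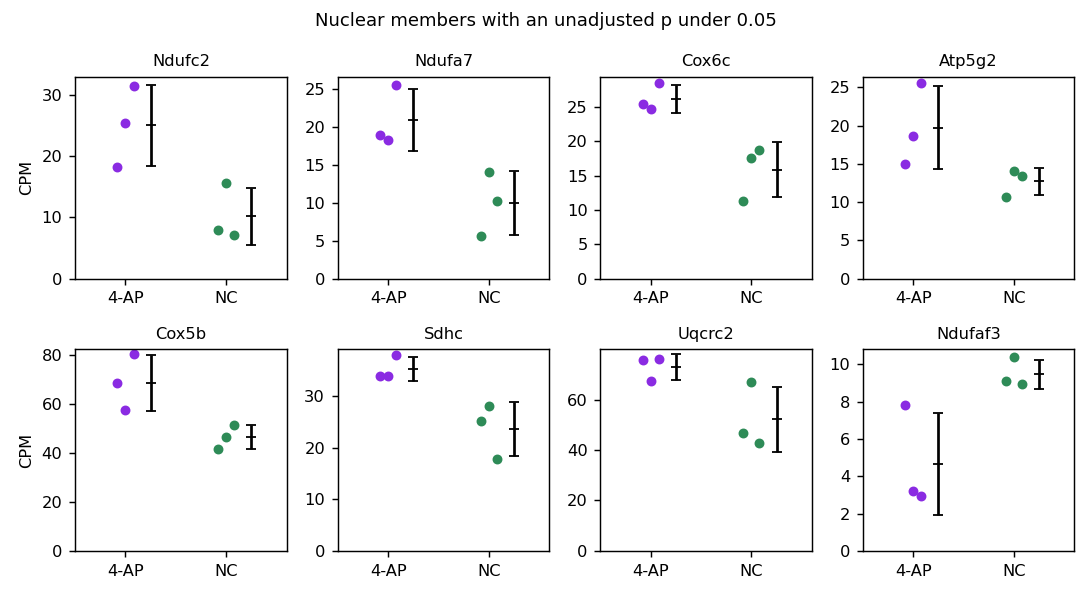
Each panel shows the CPM of 1 of the 8 nuclear members with an unadjusted p under 0.05, with 3 points per group, 4-AP left and NC right, and the mean with its SD beside them. All 8 separate the groups without overlap, 7 with 4-AP higher and Ndufaf3 with 4-AP lower, and none passed after adjustment over all genes. The genes were picked for a small p in these same data, so their separation is no further support. Among all tested genes 13.9% had such a p, and 18.8% separated the groups.

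Of the 23 untested members, 4 had 0 counts in every library. They were Atp5a1, Ndufs3, Uqcrc1 and an Atp5o gene model annotated beside the main one. The first 3 encode core subunits that every respiring cell needs, and 0 counts here say nothing on whether the RNA was present.

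Small differences in one direction were common among the nuclear members. Of 79 tested, 59 lay above 0, where 49% of all tested genes did, and the median log2 fold change was 0.25, against -0.0076 for all tested genes. Groups did not overlap with 4-AP higher for 16 and with 4-AP lower for 3, against 8.36% and 10.4% of all tested genes. Relative to the mean of the NC libraries, the median over the nuclear members was 0.20, 0.18 and 0.40 on the log2 scale in 4-AP brain, against -0.15, 0.12 and 0.03 in NC brain. It was highest in 4-AP replicate 3, and without that library the median log2 fold change was 0.14. Scaling by total counts alone put the median of all genes at -0.22 and that of the nuclear members at 0.04, with 45 of 79 above 0 where 26.7% of all genes were. With that scaling the mitochondrial median was -0.07 and 2 of 9 lay above 0. Relative to all genes, the nuclear median was 0.25 in the main scaling and 0.26 with total counts.

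The nuclear members are short genes, and values were also set out by length. The longest annotated transcript had a median of 1141 bases over the tested nuclear members and of 3736 bases over all tested genes. At lengths up to 1000 bases the median log2 fold change was 0.26 over 35 nuclear members and also above 0, at 0.20, over 227 other protein-coding genes. From over 1000 to 2000 bases the medians were 0.21 for 26 members and 0.07 for 1271 other genes, and from over 2000 to 4000 bases 0.25 for 14 members and 0.01 for 4367 others. Above 4000 bases there were 4 members, at -0.13, beside -0.05 for 5029 others. The members' medians thus differed little between the 3 bins up to 4000 bases, while those of the other genes were lower in each longer bin. Groups did not overlap with 4-AP higher for 5 of 35 nuclear members and 32 of 227 others in the shortest bin. The second bin had 6 of 26 and 136 of 1271, and the third 5 of 14 and 366 of 4367. The last had 0 of 4 and 373 of 5029. With 4-AP lower, members had 0, 2, 0 and 1 in these bins, and others 6, 73, 415 and 655. Shares above 0 were 74.3%, 76.9%, 78.6% and 50% for members and 65.6%, 57.7%, 51.5% and 43.6% for others.

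**Figure D5:**
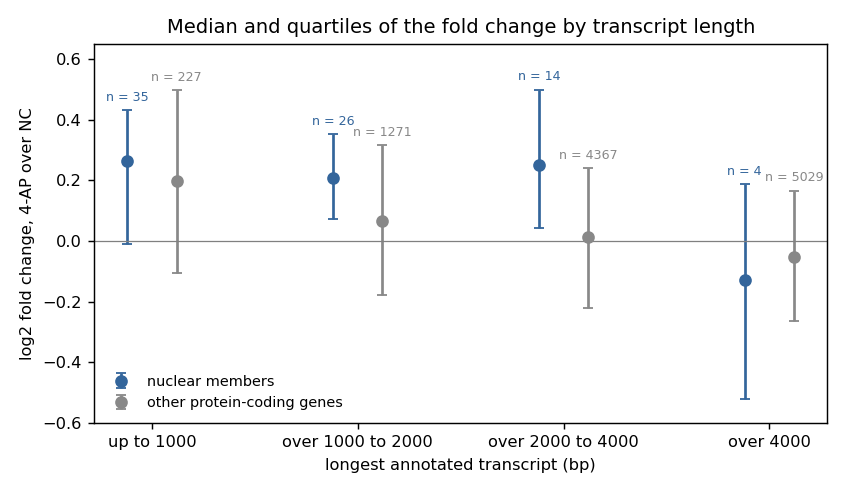
Points are medians and bars the quartiles of the log2 fold change of 4-AP over NC (y axis) for nuclear members and for other protein-coding genes, in bins of the longest annotated transcript (x axis, bases), with the number of genes above. The median of the other genes runs from 0.20 in the shortest bin to -0.05 in the longest, and the bins of over 2000 bases hold 14 and 4 members.

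Promoter sequences of the nuclear members were searched for a pair of motifs. NRF1 is a transcription factor known for driving nuclear genes of the respiratory chain, and its palindromic site was searched as GCGCA, any base, then GCGC, on both strands, from 250 bases before to 50 bases after each start. Of 97 nuclear symbols, 80 matched RefSeq promoters (GRCm38.p6), and 21 of these, or 26.2%, held the motif, against 7.17% of 17492 protein-coding genes. An ETS-type motif, CCGGAAGT, was in 6.25% and 5.69%. The windows of Sdha (chr13:74350191-74350490, minus strand, 3 matches) and Cox6a1 (chr5:115348909-115349208, minus strand, 2 matches) are shown as examples with several matches, which are in capitals:
Sdha: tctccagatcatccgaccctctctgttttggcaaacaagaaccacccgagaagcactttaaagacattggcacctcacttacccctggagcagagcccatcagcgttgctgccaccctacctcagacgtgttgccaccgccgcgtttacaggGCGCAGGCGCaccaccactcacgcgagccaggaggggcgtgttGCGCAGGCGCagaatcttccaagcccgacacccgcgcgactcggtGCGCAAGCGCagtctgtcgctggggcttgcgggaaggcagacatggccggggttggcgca
Cox6a1: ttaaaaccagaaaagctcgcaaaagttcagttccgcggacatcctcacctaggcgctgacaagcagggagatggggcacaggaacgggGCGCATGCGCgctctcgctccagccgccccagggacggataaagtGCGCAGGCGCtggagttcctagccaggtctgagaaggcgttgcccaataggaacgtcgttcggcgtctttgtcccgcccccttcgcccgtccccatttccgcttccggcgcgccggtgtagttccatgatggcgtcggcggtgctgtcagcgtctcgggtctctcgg
A match is a run of letters and not a measured binding site.

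Around the pathway, 1 gene of the other mitochondrial lists passed the test. Vdac1, the main channel for metabolites through the outer mitochondrial membrane (chromosome 11, 52360860 to 52389397, plus strand), had 518, 340.2 and 458 CPM in 4-AP, against 174, 212 and 262 CPM in NC libraries. It rose to a mean of 438 CPM in 4-AP, against 216 CPM in NC libraries, without overlap (log2 1.02, SE 0.17; adjusted p = 0.00520 by edgeR). Dropping 1 library at a time gave log2 values of 0.88 to 1.20 and kept the call in 5 of 6 fits, with an edgeR adjusted p of 0.0512 without NC replicate 2, and it passed in all 12 other settings tried. It was the 1 called gene among 19 tested carriers and channels, whose median was 0.04, and among all these lists, where 0.843% of all tested genes were called. By edgeR, 0 of the 17 tested regulators of mitochondrial gene expression passed, with 2 at an unadjusted p under 0.05. Nrf1, which encodes the factor above, had 73.7, 62.2 and 123 CPM in 4-AP and 63.8, 30.1 and 35.3 in NC libraries, with an overlap at NC replicate 1 (log2 0.98, SE 0.32; adjusted p = 0.194 by edgeR). Nrf1 passed in 2 of the 12 other settings, with an adjusted p of 0.0184 by DESeq2 and 0.000786 by edgeR with no low-count filter. These 2 settings called 231 and 328 genes over the whole table, against 96 in the main fit. Of the 6 fits that dropped 1 library, Nrf1 passed in 1, without NC replicate 1 (log2 1.40, edgeR adjusted p 0.00915). The highest edgeR adjusted p of those fits was 0.400. Without 4-AP replicate 3 its log2 value was 0.65. Pprc1, a coactivator related to PGC-1, was at -0.85 (SE 0.29; adjusted p = 0.166 by edgeR).

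The other lists had 0 called members by edgeR, the mitochondrial rRNAs (median 1.90) and cytochromes c and c1 (-0.24) included. The remaining lists had small medians. They were the mitochondrial ribosomal proteins (60 tested, 4 at an unadjusted p under 0.05; median 0.11), the assembly factors of complexes III to V (22 tested, 0 at that level; 0.19), pyruvate dehydrogenase and the citric acid cycle (17 tested, 1; 0.03) and glycolysis (17 tested, 2; -0.04). These counts compare with 13.9% of all tested genes at that level. Mrps2, a small-subunit mitochondrial ribosomal protein, came closest, with 13.7, 12.9 and 15.4 CPM in 4-AP and 6.60, 3.89 and 3.57 in NC libraries (log2 1.54, SE 0.38; adjusted p = 0.0548 by edgeR). Its edgeR adjusted p passed in 4 of 12 other settings. They were upper-quartile scaling (0.0495), no low-count filter (0.0248), a CPM above 1 in 3 libraries (0.0479) and the replicate block (0.0358). Of the 6 fits that dropped 1 library, Mrps2 passed in 1, without NC replicate 1 (log2 1.88, edgeR adjusted p 0.0317). The edgeR adjusted p reached 0.198 without 4-AP replicate 3. Sucla2, a succinyl-CoA synthetase subunit, was at 0.63 (SE 0.22), and the hexokinase gene Hk1 at -0.39 (SE 0.14) with all 4-AP libraries below all NC libraries. The mobile carrier gene Cycs, cytochrome c, was at -0.46 (SE 0.38) and Cyc1, the cytochrome of complex III left out by the symbol rule, at -0.01 (SE 0.20).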

How the data were processed

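For each of the 6 libraries the authors deposited raw counts of reads per gene. Per the submitters' processing notes, STAR 2.5.3a and featureCounts were used on mm10; for the annotation release, strand setting and handling of multi-mappers, values were not given in the sources used here. Of 55604 identifiers, 54723 matched GENCODE M21 (also mm10), and the 881 others held 0.0203% of counts. Low genes were removed with filterByExpr at a count of 10 and a total of 15; the rest were scaled by TMM and tested with edgeR 4.0.16 in R 4.3.3 (robust quasi-likelihood, group as the only term, Benjamini-Hochberg adjustment over all 11388 genes, threshold 0.05). SEs come from the fold change and its F; lengths are unions of exons. DESeq2 1.42.0 and limma 3.58.1 (voom) were alternatives. The procedure was tested on 5 simulated draws of 200 changed genes, in which 9.34% of calls were unchanged genes. Every pair of libraries differed beyond sampling noise (lowest chi-square per degree of freedom 8.62). Members and gene lists were chosen with earlier results of these data known. Named were all mitochondrial members, per complex the 3 most abundant nuclear members per length and up to 2 per direction with the smallest p, called members, tissue-restricted isoforms, and up to 2 per direction and companion list; not all of the last are printed, and 1 named item is not reported here. Intervals cover counting error only, as reads carry no molecular identifiers.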

Additional observations from a re-analysis of the deposited data

How the results depend on the processing

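The count of 0 called members by edgeR became 1, Ndufc2, with no low-count filter (log2 1.21), with the replicate number as a block (log2 1.26), at an adjusted p under 0.1, and without NC replicate 2; over the fits that left out 1 library it was 0 to 1 higher and 0 lower. Correlations of same-numbered libraries were -0.00189, 0.113 and 0.0245, so the numbers are not taken as pairs. Over all genes, 38 were called higher and 58 lower. Higher and lower counts were 92 and 139 with DESeq2, 131 and 197 with no filter, 112 and 153 with the block, 25 and 30 without the robust fit, and 121 and 169 at 0.1; total counts gave 293 lower. Leaving out 1 library gave 16 to 105 higher and 10 to 54 lower.

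Total counts alone moved the median of all tested genes from -0.0076 to -0.2166, with 26.7% of them above 0. The same scaling moved these medians: nuclear 0.0406, mitochondrial -0.0701, nuclear complexes I 0.0291, II 0.1641, IV 0.1051 and V -0.0457, and mitochondrial complex I -0.214. It also turned below 0 mt-Nd1 (-0.0701), mt-Nd4 (-0.0433), mt-Nd5 (-0.214), Ndufa9 (-0.0449), Sdha (-0.1623), Sdhb (-0.1035), mt-Cytb (-0.1001), mt-Co1 (-0.0562), Cox6b1 (-0.0677), Atp5b (-0.1021) and Atp5d (-0.0457). mt-Nd5, at 0.0013, was -0.0053 with limma-voom, -0.0306 with no filter and -0.0084 with a CPM above 1 in 3 libraries. Over the fits that left out 1 library the nuclear median was 0.14 to 0.30 and the mitochondrial 0.01 to 0.28. Those of nuclear complex V were 0.11 to 0.29.

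Signs turned in some of these fits, with ranges -0.26 to 0.16 for mt-Nd2, -0.0771 to 0.12 for mt-Nd5, -0.0311 to 0.15 for Sdha, -0.0477 to 0.25 for Sdhb, -0.21 to 0.68 for Uqcr10, -0.23 to 0.0756 for Cox5a, -0.0219 to 0.30 for Atp5d and -0.70 to 0.0747 for Atp5k. The cause of these changes was not tested.

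With rRNA genes, Lars2 and Gm26917 out of the denominator, an alternative chosen after seeing the data, mean shares were 0.628% in 4-AP and 0.556% in NC libraries for mitochondrial and 0.384% and 0.316% for nuclear members. By library the nuclear shares were 0.368%, 0.374% and 0.410% in 4-AP and 0.296%, 0.333% and 0.318% in NC, without overlap. The mitochondrial shares overlapped, at 0.615% to 0.647% in 4-AP and 0.450% to 0.686% in NC. With all counts as denominator, both sets overlapped between groups. Leaving the rRNA genes, Lars2 and Gm26917 out of the scaling gave a nuclear median of 0.26. The 10 members with the highest level per length were the same with the longest transcript as length. At this depth changes of 1.5-fold were mostly not detectable in simulated counts of genes drawn from the whole table.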
